A study of Mus musculus with 12 samples.

Results

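Serpin genes were described across 12 tumour libraries of 425-ICC, a murine intrahepatic cholangiocarcinoma, a malignancy that arises from bile duct epithelium within the liver. The members were the rows of the deposited expression table whose symbol is Serpin followed by a clade letter from a to i and a number, and whose value was above 0 in at least 1 library. Of 24421 symbols in the table, 63 had such a name and 49 of these were above 0 somewhere. The other 14 were listed at 0 in every library. Clade A held 22 of the 49 members, clade B held 17, clade E held 3, clade F held 2, and clades C, D, G, H and I held 1 each.

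Tumours had been treated for 8 days in 4 groups of 3 libraries. Combination tumours received GC and dual ICB, GC tumours received GC, ICB tumours received dual ICB, and Control tumours received IgG. GC is a chemotherapy that the labels give by its abbreviation, taken here to stand for gemcitabine and cisplatin. ICB is immune checkpoint blockade, here of CTLA-4 and PD1 according to the title. The labels state no strain, age, sex or host of the tumours and do not tie libraries to separate animals. The p-values therefore measure the spread between these libraries, which may be technical.

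Serpins share a fold in which an exposed stretch of the protein, the reactive centre loop, serves as bait for a protease. When the protease cuts the loop, the serpin changes shape and holds the enzyme in an inactive complex, and the residue just before the cut largely sets which protease is caught. Most clade A, C and D serpins are made by hepatocytes and circulate in plasma, clade E and G members act on proteases of fibrinolysis, clotting and complement near cells, and clade B members stay mainly inside cells, where several of them guard against granzymes and neutrophil proteases. A few serpins inhibit nothing: Serpina6 and Serpina7 carry hormones, and Serpinh1 is a chaperone of collagen.

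Of the 49 members 21 lie on chromosome 12, between 103614786 and 104414329 of GRCm38 (the mm10 assembly that the submitters' processing notes name), 11 lie on chromosome 13 and 8 on chromosome 1. Serpina1a to Serpina1e, the mouse copies of the α1-antitrypsin gene, an inhibitor of neutrophil elastase in humans, lie together at chr12:103728156-103958975 on the minus strand. Their coding sequences in GENCODE M21 are 1239 bases each and differ little, with pairwise identities between 96.3% and 98.5%. They differ most in the stretch that encodes the reactive centre loop. Over codons 363 to 388, 18 of 78 bases vary among the 5 genes (23.1%), against 68 of 1161 bases (5.86%) in the rest. These stretches are shown because the copies are told apart there, both as inhibitors and in sequencing reads. All are written 5′ to 3′ on the coding strand, and capitals mark the bases that vary among the 5 genes.
Serpina1a: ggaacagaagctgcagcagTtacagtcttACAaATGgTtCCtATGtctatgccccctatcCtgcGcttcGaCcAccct
Serpina1b: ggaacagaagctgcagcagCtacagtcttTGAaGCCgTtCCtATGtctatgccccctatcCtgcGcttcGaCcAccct
Serpina1c: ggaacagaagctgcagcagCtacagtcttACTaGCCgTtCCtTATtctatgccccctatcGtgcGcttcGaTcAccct
Serpina1d: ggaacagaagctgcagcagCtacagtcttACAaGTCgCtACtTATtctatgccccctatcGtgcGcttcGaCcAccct
Serpina1e: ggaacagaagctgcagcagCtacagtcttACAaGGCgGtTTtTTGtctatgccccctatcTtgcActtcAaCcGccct

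The codon just before the invariant tct, which stands at the cut site of the loop, is ATG in Serpina1a and Serpina1b, TAT in Serpina1c and Serpina1d, and TTG in Serpina1e. Outside the loop the copies share long identical runs, of at most 728 bases between Serpina1a and Serpina1c and of at most 226 bases between Serpina1a and Serpina1e. Reads from such runs cannot be assigned to 1 copy, and how the counting treated them is not given in the sources used here, so the split of the signal among the 5 copies is uncertain.

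Promoter windows from RefSeq (GRCm38.p6), from 250 bases before to 50 bases after the gene start, were held for 39 of the 49 members and searched on both strands. The letters GAAA, 2 free bases and GAAA, a core of the interferon-stimulated response element, occurred in the windows of Serpinb6a and Serpinb9. That is 5.13% of the 39 serpins, against 3.44% of all 32851 windows. The letters TTC, 3 free bases and GAA, a core bound by STAT factors, occurred in windows of Serpina11, Serpina3f, Serpina3g, Serpina3i, Serpinb2 and Serpinb6a. That is 15.4% of the 39 serpins, against 8.3% of all windows. The serpin shares count genes and the other shares count windows, so their units differ. A match is a description of the letters only.

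Values were FPKM, fragments scaled for transcript length and for mapped fragments per library, so that levels can be compared between genes. They summed to between 547146 and 660067 per library, and the depth behind them is unknown. Libraries differed in tissue content. A list of 20 hepatocyte genes, with no serpin among them, made up 0.820%, 20.6% and 8.49% of FPKM in Combination replicates 1, 2 and 3, 0.222% to 1.82% in GC, 0.177% to 0.664% in ICB and 0.0238% to 0.0429% in Control. No hepatocyte gene of the list was at 0 in the Combination and GC libraries, Cps1 was at 0 in ICB replicate 1 and in Control replicates 1 and 2, and Fgb, Cyp2e1, Cyp3a11, Apoh and Vtn were at 0 in Control replicate 3. A list of 15 small intestinal genes made up 0.942% in Combination replicate 1, with all 15 above 0, and at most 0.0994% in any other library. A list of 10 skeletal muscle genes made up 0.674% in GC replicate 2 and 0.228% in Control replicate 2, against at most 0.00217% elsewhere. A list of 10 biliary and tumour epithelial genes made up 0.112% to 1.43% in Combination, 0.407% to 0.849% in GC, 0.437% to 0.709% in ICB and 0.292% to 0.452% in Control, but Krt19 was at 0 in Control replicates 2 and 3 and Epcam was at 0 in Control replicate 3 and ICB replicate 1.

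Serpins as a family took 0.220%, 4.25% and 1.55% of all FPKM in Combination replicates 1, 2 and 3. Their share was 0.276% to 0.462% in GC, 0.201% to 0.315% in ICB and 0.109% to 0.181% in Control. Which serpins filled it differed as much as its size. Clade A made up 87.7% and 76.2% of serpin FPKM in Combination replicates 2 and 3, led by Serpina3k and Serpina1c, but 9.83% in Combination replicate 1. Its share was 16.7% to 58.2% in GC, 16.3% to 30.1% in ICB and 1.62% to 18.8% in Control. In Combination replicate 1, GC replicates 1 and 2, ICB replicate 3 and Control replicate 2 the most abundant serpin was Serpinh1, and in ICB replicates 1 and 2 and Control replicate 3 it was Serpinb6a.

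**Figure D1:**
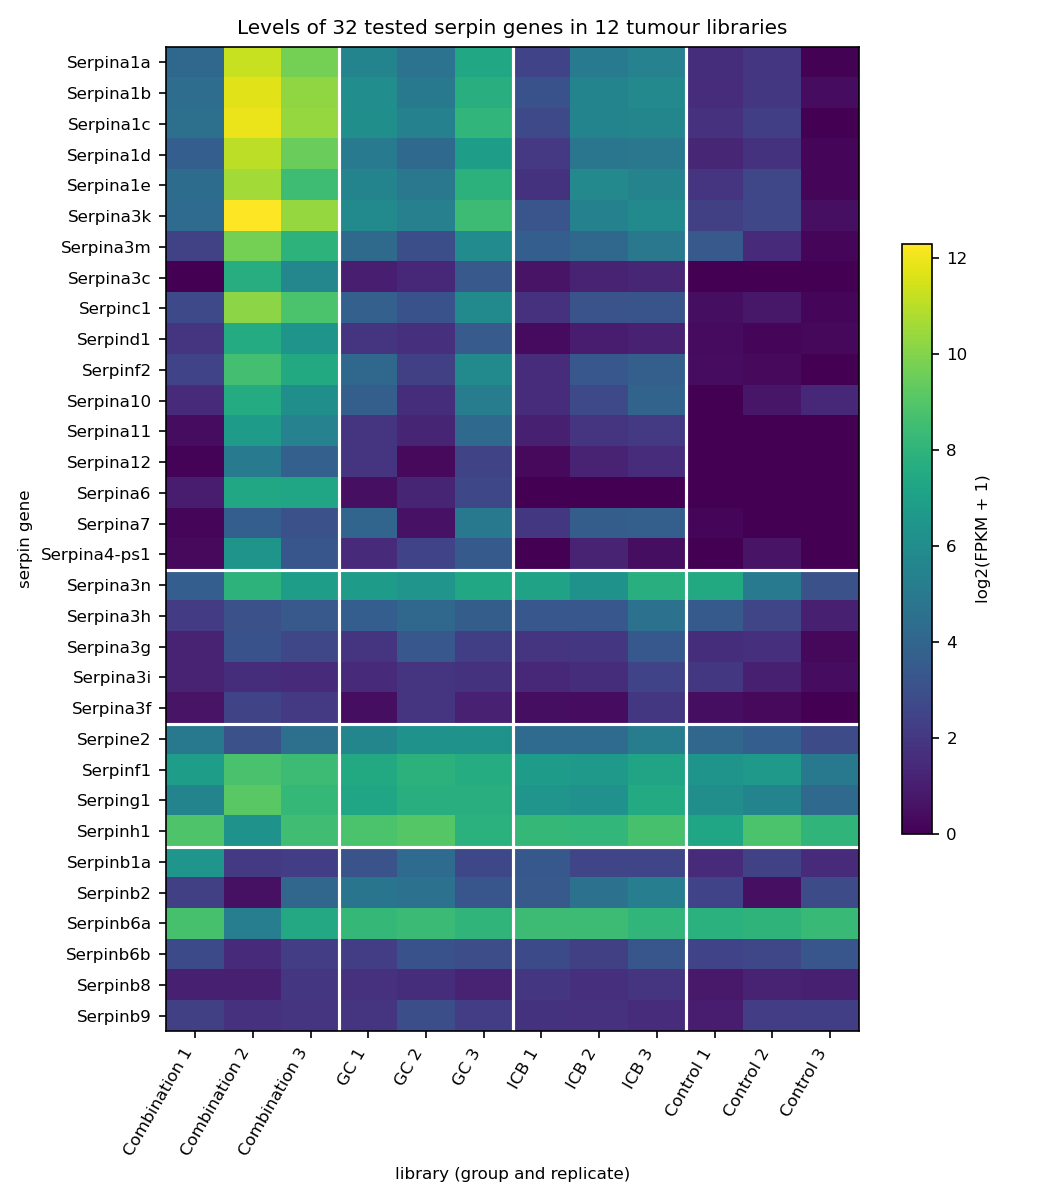
Levels of 32 tested serpin genes (rows, grouped from top to bottom as plasma serpins, other Serpina3 genes, matrix and stromal serpins, and clade B) in each library (columns), in log2(FPKM + 1). Clade A fills 87.7% and 76.2% of serpin FPKM in Combination replicates 2 and 3, while Combination replicate 1 looks more like the other groups, and Serpinb6a and Serpinh1 are high in most libraries.

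Of the 49 members 33 had a mean of at least 1 FPKM over the 12 libraries and were tested with limma on log2(FPKM + 1), together with the 12765 genes of the whole table that reached that mean. The lowest tested mean was 1.43 FPKM (Serpina3f) and the highest untested mean was 0.631 FPKM (Serpinb9b). Serpina3f and Serpina6 reached it only through the Combination libraries, so they had to differ there. Their Combination values are given without a test. Counts of calls that include them name them and are no test of them. Differences are given ± SE on the log2(FPKM + 1) scale, which understates changes of weakly expressed genes, and a gene was called at a Benjamini-Hochberg adjusted p under 0.05 over all 12765 genes.

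In Combination tumours against Control, 9 serpins rose and none fell. All 9 are plasma proteins of hepatocytes: the 5 Serpina1 copies, Serpina3k, the clotting inhibitors Serpinc1 (antithrombin) and Serpind1 (heparin cofactor II), and Serpinf2 (α2-antiplasmin, the main inhibitor of plasmin). That is 9 of the 33 tested serpins (27.3%), against 3.55% of all tested genes called higher and 0.4% called lower. At an unadjusted p under 0.05, 19 serpins (57.6%) were higher, against 11.7% of all tested genes, and 1 (3.03%) was lower, against 14.6%. Every Combination library lay above every Control library in 16 serpins (48.5%), against 9.74% of all tested genes, and below it in 0, against 13.2%. Without Serpina3f and Serpina6 these counts were 17 and 14 of 31 serpins, and the 9 calls stayed 9. In bulk tissue, fewer cells of a type and less RNA per cell cannot be told apart.

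Serpina1c stood at 22.4, 3906 and 1313 FPKM in Combination replicates 1, 2 and 3, and at 2.40 and 3.85 FPKM in Control replicates 1 and 2, with Control replicate 3 listed at 0. The groups did not overlap, although Combination replicate 1 lay far below the other Combination libraries. The difference was 7.60 ± 1.59 (limma adjusted p = 0.0218). The other copies had differences between 6.24 for Serpina1e and 7.47 for Serpina1b, and limma adjusted p between 0.0207 and 0.0428.

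Serpina1a measured 16.2, 2444 and 843 FPKM in Combination, 45.4, 24.7 and 162 FPKM in GC, 4.52, 31.9 and 42.1 FPKM in ICB and 2.06, 2.84 and 0.0593 FPKM in Control. Serpina1b measured 19.7, 3438 and 1228 FPKM in Combination, 64.6, 30.2 and 209 FPKM in GC, 7.63, 44.98 and 54.0 FPKM in ICB and 1.99, 2.94 and 0.327 FPKM in Control. In both genes every treated library lay above every Control library.

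Serpina1d measured 11.7, 2159 and 723 FPKM in Combination, 32.6, 17.2 and 112.5 FPKM in GC, 3.11, 27.2 and 29.5 FPKM in ICB and 1.48, 2.47 and 0.111 FPKM in Control. Serpina1e measured 19.1, 1543 and 359 FPKM in Combination, 45.4, 28.8 and 239.7 FPKM in GC, 2.54, 54.2 and 43.4 FPKM in ICB and 2.75, 5.20 and 0.120 FPKM in Control. The order of libraries was similar, except that ICB replicate 1 fell within the Control range for Serpina1e.

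Serpina3k, one of the mouse relatives of the human α1-antichymotrypsin gene, was the most abundant serpin of Combination replicate 2. It measured 18.8, 4998 and 1281 FPKM in the Combination replicates and 4.01, 5.21 and 0.432 FPKM in the Control replicates, a difference of 7.15 ± 1.66 (limma adjusted p = 0.0359). Serpinc1 (chr1:160978585-161005863), the plasma inhibitor of thrombin and factor Xa that heparin activates, measured 5.59, 1138 and 454 FPKM in Combination and 0.380, 0.739 and 0.111 FPKM in Control. Its difference was 6.76 ± 1.48 (limma adjusted p = 0.0283), with every Combination library above every Control library.

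Serpind1 (chr16:17331371-17343575), another thrombin inhibitor, measured 2.62, 191 and 81.1 FPKM in Combination and 0.272, 0.155 and 0.202 FPKM in Control, which gave a difference of 4.99 ± 1.11 (limma adjusted p = 0.0299). Serpinf2 (chr11:75431732-75439591) measured 4.53, 385 and 175 FPKM in Combination and 0.307, 0.232 and 0 FPKM in Control, a difference of 5.95 ± 1.35 (limma adjusted p = 0.0321). As for the clade A genes, the lowest value of both genes in the Combination group was that of replicate 1, and it lay above all Control values.

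**Figure D2:**
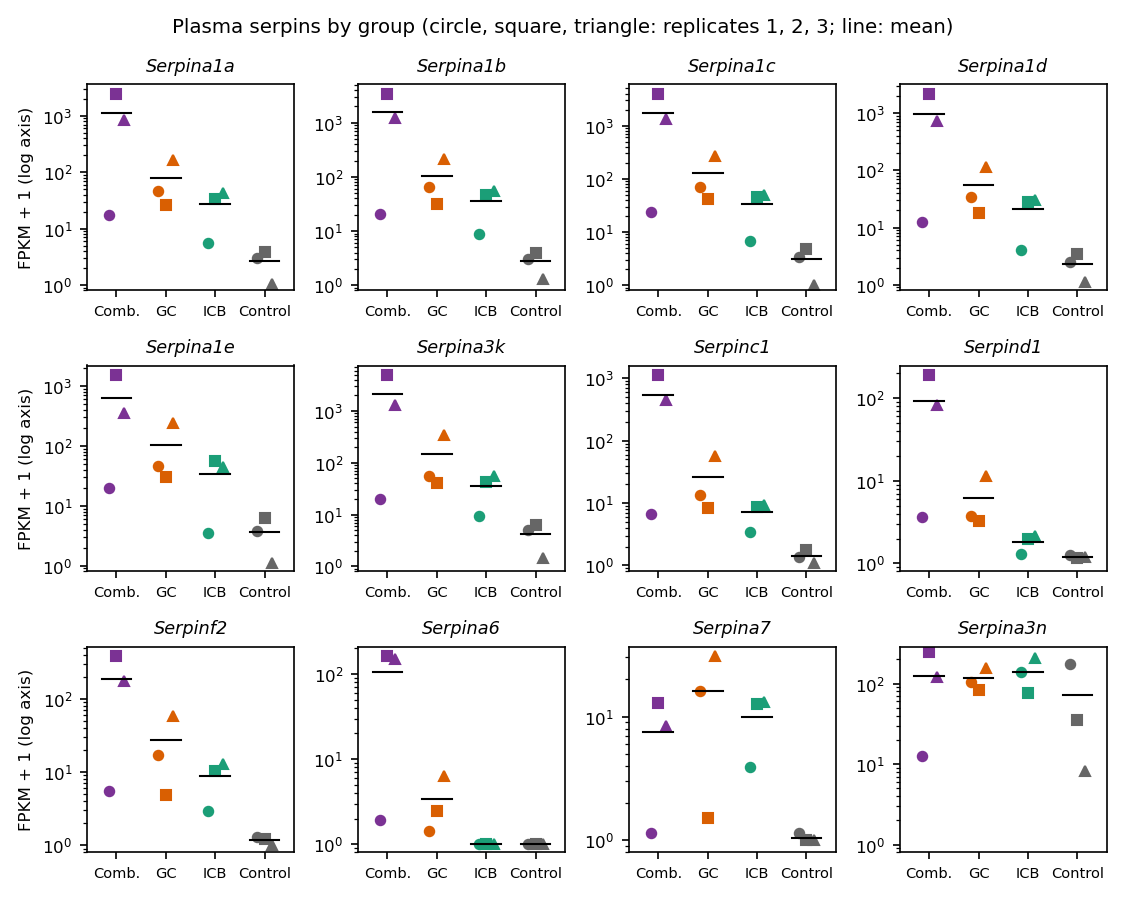
FPKM + 1 (log axis) of 12 plasma serpins in the 4 groups, with replicates 1, 2 and 3 as circle, square and triangle and the group mean as a line. Combination replicates 2 and 3 are the highest libraries for Serpina1a to Serpina1e, Serpina3k, Serpinc1, Serpind1, Serpinf2 and Serpina6, whereas Serpina7 is highest in GC replicate 3 (29.9 FPKM) and Serpina3n overlaps in all groups.

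Hepatocyte genes were higher in the same comparison. Of the 20 hepatocyte genes 18 were called higher in Combination against Control, with a median difference of 6.95, against 5.95 for the 15 listed plasma serpins, 2.36 for the 33 tested serpins and -0.29 for all tested genes. With the mean of the hepatocyte list as a covariate none of the 9 serpins was called. Their differences turned negative, between -1.55 for Serpina3k and -0.57 for Serpind1 (limma adjusted p between 0.206 and 0.784). The covariate differed between the groups, and 18 of its 20 genes were called in the same comparison. The fit therefore cannot tell hepatocyte content from treatment, and the cause was not tested. The calls rested on single libraries: without Combination replicate 1 the count was 21 (20 higher, against 11% of all tested genes, and 1 lower, against 13.8%). Serpina3f and Serpina6, tested only through Combination, are among the 21. The count was 0 without any 1 of the Control libraries or without Combination replicate 2 or 3. In those fits 1.72% to 2.6% of all tested genes were called.

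The other 6 listed plasma serpins were not among the calls of this comparison. Serpina6, corticosteroid-binding globulin, measured 0.922, 162 and 149 FPKM in Combination and was listed at 0 in every Control library. Serpina10, the inhibitor that acts with protein Z on factor Xa, measured 1.86, 189 and 69.2 FPKM in Combination and 0, 0.671 and 1.64 FPKM in Control (difference 4.36 ± 1.34, limma adjusted p = 0.0903). Both genes were higher in each Combination library than in any Control library, and Combination replicate 1 lay far below the other Combination libraries in both.

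Serpina11 measured 0.316, 110 and 42.6 FPKM in Combination and was listed at 0 in all Control libraries (limma adjusted p = 0.0901). Serpina3m, whose coding sequence is 91.1% identical to that of Serpina3k, measured 4.39, 854 and 243 FPKM in Combination and 9.85, 1.88 and 0.163 FPKM in Control, so that the groups overlapped (difference 4.97 ± 1.53, limma adjusted p = 0.0907). Its annotated span contains that of Serpina3k, and reads cannot be split with certainty between them. Serpina12 (vaspin, known as an adipose tissue hormone), Serpina3c and the pseudogene Serpina4-ps1, which are in none of the lists by role, had their 2 highest values in Combination replicates 2 and 3 except that GC replicate 3 exceeded Combination replicate 3 for Serpina4-ps1 (10.05 against 8.91 FPKM).

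In GC tumours against Control, no serpin was called by limma, although 31 of the 33 differences were positive. At an unadjusted p under 0.05, 14 serpins (42.4%) were higher, against 8.2% of all tested genes, and 0 lower, against 1.66%. In 25 of 33 serpins (75.8%) every GC library lay above every Control library, against 18.6% of all tested genes, and in 0 the reverse held, against 9.29% of all tested genes. Among all genes limma called 0.00783% higher and 0% lower. The median difference was 3.76 for the plasma serpins and 2.09 for the tested serpins, against 0.09 for all tested genes and 4.79 for the 20 hepatocyte genes.

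The plasma serpins were again led by the Serpina1 copies. Serpina1c measured 69.2, 40.6 and 267 FPKM in GC, above the Control values given before (difference 5.18 ± 1.59, limma adjusted p = 0.277). Serpinc1 measured 12.6, 7.45 and 56.6 FPKM in GC, also above every Control library (difference 3.76 ± 1.48, limma adjusted p = 0.418). Within GC the order of libraries for these 2 genes was that of their hepatocyte share, lowest in replicate 2 and highest in replicate 3. Without the 3 Combination libraries in the fit, which removes their wide spread from the shared error, Serpina1a, Serpina1b, Serpina1c, Serpinc1 and Serpine2 were called higher in GC against Control and 0 serpins lower, with 2.19% and 0.133% of all tested genes, an alternative chosen after the data had been seen.

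In ICB tumours against Control, no serpin was called by limma and no gene of the whole table was (0%). At an unadjusted p under 0.05, 6 serpins (18.2%) were higher, against 1.29% of all tested genes, and 0 lower, against 0.454%. The ICB libraries lay above all Control libraries in 21 of 33 serpins (63.6%), against 4.65% of all tested genes, and below them in 0, against 4.67%. Serpina1c measured 5.65, 45.4 and 48.1 FPKM in ICB (difference 3.28 ± 1.59, limma adjusted p = 1), and Serpinc1 measured 2.38, 7.74 and 8.19 FPKM (2.22 ± 1.48, limma adjusted p = 1), both above every Control library. The medians were 2.64 for the plasma serpins, 1.17 for the tested serpins, -0.06 for all tested genes and 3.34 for the hepatocyte genes. The comparisons of GC, ICB and Combination with Control share the same Control libraries, among them replicate 3, which had the lowest Serpina1c, Serpina3n, Serpine2, Serpinf1 and Serping1 values of the 12 libraries.

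Serpina3k, Serpinf2, Serpina10, Serpina11 and Serpina3m had mean levels between those of Combination and Control in both single treatments. Serpina3k measured 55.6, 39.3 and 339.5 FPKM in GC and 8.42, 40.7 and 55.6 FPKM in ICB. Serpinf2 measured 16.1, 3.95 and 58.2 FPKM in GC and 1.91, 9.22 and 12.04 FPKM in ICB. For both genes all GC and all ICB libraries lay above all Control libraries, and each GC group overlapped the Combination group through Combination replicate 1.

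Serpina10 measured 12.01, 2.01 and 34.8 FPKM in GC and 1.92, 5.60 and 14.2 FPKM in ICB. Serpina11 measured 2.73, 1.44 and 17.3 FPKM in GC and 1.08, 2.71 and 3.27 FPKM in ICB. Serpina3m measured 18.2, 6.66 and 59.8 FPKM in GC, where replicate 2 lay within the Control range, and 11.6, 16.0 and 29.6 FPKM in ICB, all above Control.

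**Figure D3:**
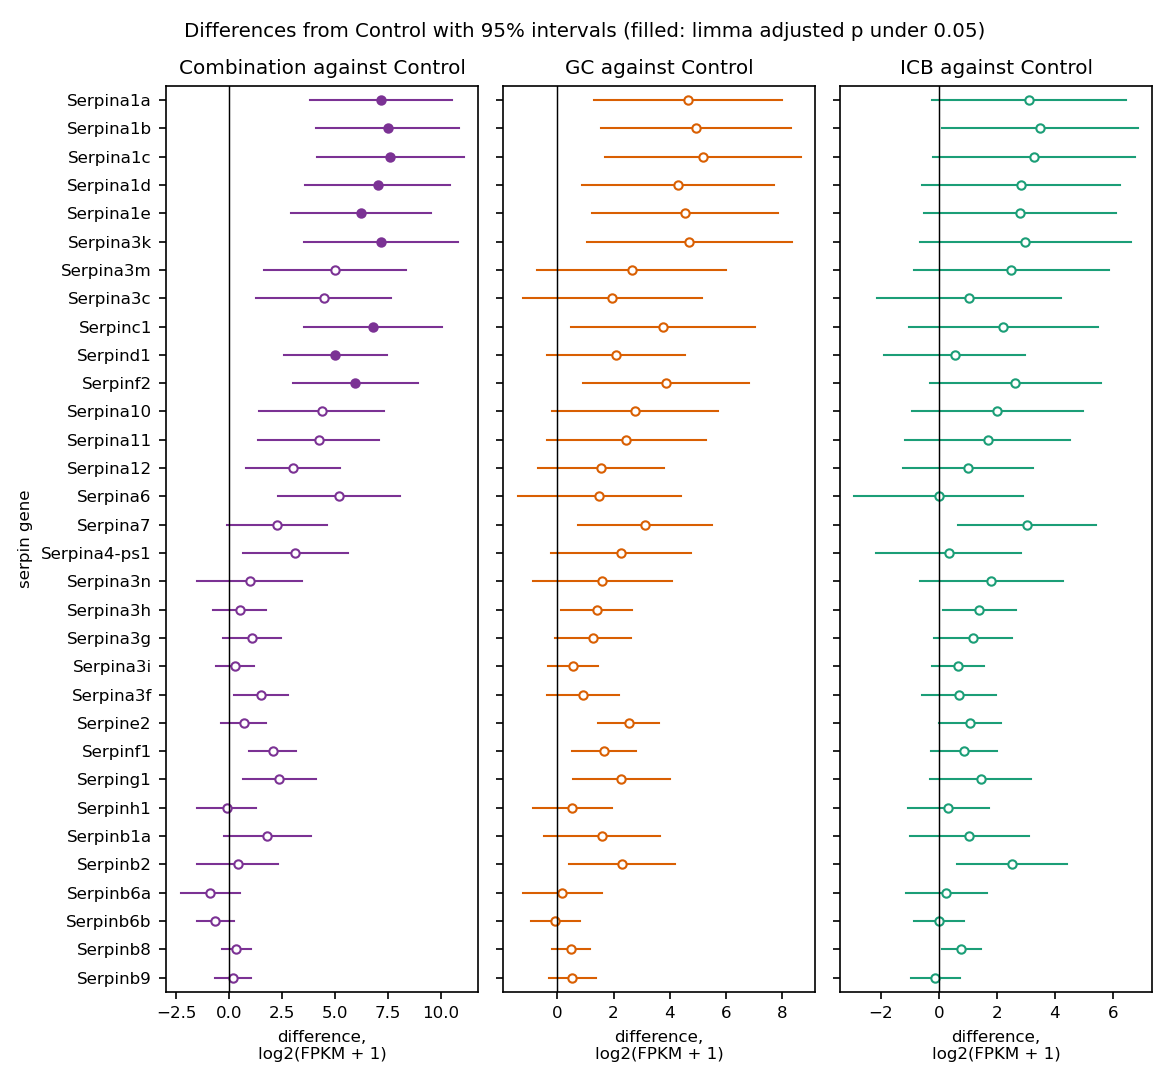
Differences from Control in log2(FPKM + 1) with 95% intervals for 32 tested serpins, for Combination, GC and ICB tumours. Filled points mark a limma adjusted p under 0.05, which 9 serpins reached in Combination, 0 in GC and 0 in ICB, and all 3 comparisons share the Control libraries.

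Plasma serpins did not keep fixed proportions to albumin (Alb), the most abundant plasma protein made by hepatocytes, at 217, 45399 and 16867 FPKM in Combination, 441, 174 and 893 FPKM in GC, 41.7, 288 and 369 FPKM in ICB and 35.2, 24.1 and 2.95 FPKM in Control. Serpinc1 was at 2.57%, 2.51% and 2.69% of the Alb FPKM in Combination, 2.86% to 6.34% in GC, 2.22% to 5.71% in ICB and 1.08% to 3.77% in Control. Serpina1c was at 7.78% to 10.3% of Alb in Combination, 15.7% to 29.9% in GC, 13.0% to 15.7% in ICB and 0% to 16.0% in Control.

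Serpina7, thyroxine-binding globulin, was distributed differently. It measured 0.153, 11.9 and 7.40 FPKM in Combination, 15.2, 0.514 and 29.9 FPKM in GC, 2.92, 11.5 and 12.03 FPKM in ICB and 0.145, 0 and 0 FPKM in Control. The 2 libraries with the most albumin RNA thus had less Serpina7 than GC replicates 1 and 3, and no more than ICB replicate 3. Relative to Alb it stood at 0.0703%, 0.0262% and 0.0439% in Combination, 3.44%, 0.296% and 3.35% in GC, and at least 3.26% in every ICB library. Combination thus lay below both single treatments without overlap. The same held relative to Alb for Serpina1a to Serpina1d, Serpina3k, Serpina3m, Serpina3n, Serpina10, Serpina11, Serpina12 and Serpinf2, so it was not particular to Serpina7. It did not hold for Serpina1e, Serpinc1, Serpind1, Serpina6, Serpina3c and Serpina4-ps1.

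On the plain scale Serpina7 was not called in any comparison (Combination against ICB -0.79 ± 1.08, limma adjusted p = 0.688). With the hepatocyte list as a covariate it was lower in Combination than in ICB by -3.34 ± 0.74 (limma adjusted p = 0.035), and its difference of differences (Combination minus GC minus ICB plus Control) was -3.29 ± 0.82 (limma adjusted p = 0.0425). The covariate itself differed between the groups, and the fit uses 1 slope for all libraries.

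Serpina6 had another distribution. It was listed at 0 in all ICB and Control libraries, measured 0.435, 1.45 and 5.29 FPKM in GC, and reached 162 and 149 FPKM in Combination replicates 2 and 3. Relative to Alb it stood at 0.424%, 0.357% and 0.884% in Combination and at 0.0987%, 0.836% and 0.592% in GC, which overlap. ICB replicates 2 and 3 had 288 and 369 FPKM of Alb and 0 of Serpina6, whereas GC replicate 2, with less Alb, had 1.45 FPKM of Serpina6.

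Within the Serpina1 copies the make-up varied. Serpina1e held 21.5%, 11.4% and 8.04% of their summed FPKM in Combination, 17.7%, 20.4% and 24.2% in GC, 10.8%, 26.6% and 20.0% in ICB and 25.8%, 30.1% and 19.4% in Control. Combination replicate 3, Combination replicate 2 and ICB replicate 1 had the lowest shares, and the groups overlapped. Serpina1d stayed between 11.4% and 18.0% in all 12 libraries. The part of read assignment among near-identical copies in these shares was not tested.

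**Figure D4:**
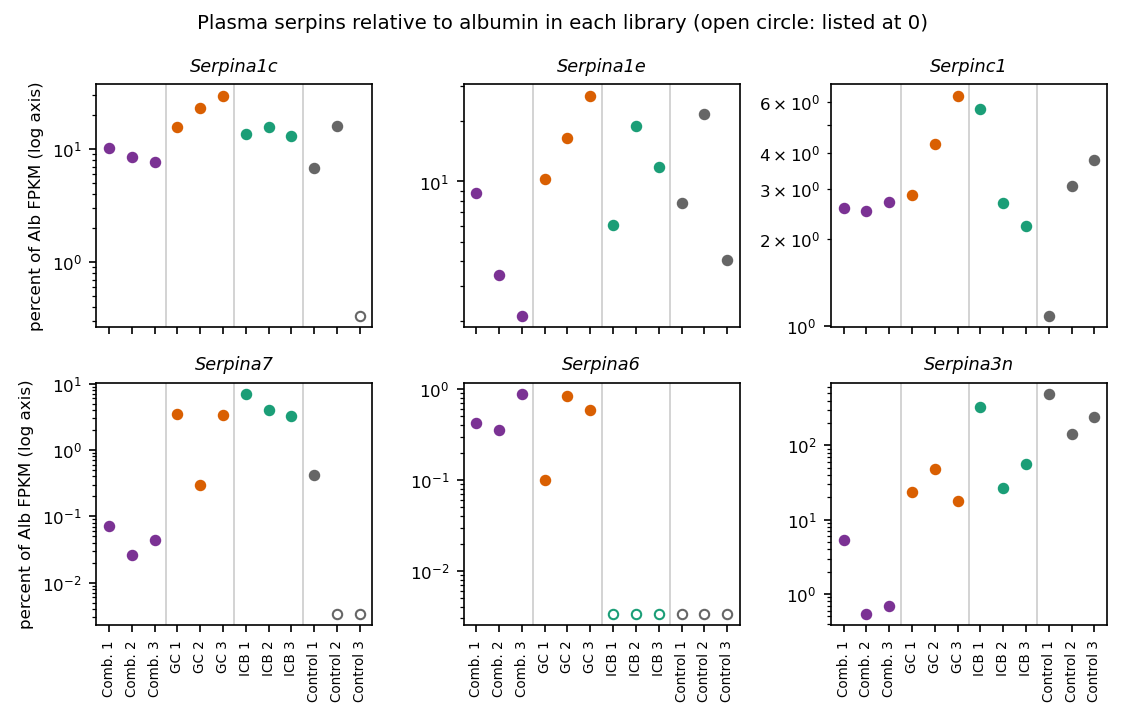
FPKM of 6 plasma serpins as a percent of the Alb FPKM (log axis) in each library, with open circles for genes listed at 0. Serpinc1 stays between 1.08% and 6.34%, Serpina7 falls below 0.1% only in the Combination libraries among those above 0, Serpina6 is at 0 in ICB and Control, and Serpina3n is above 100% in the Control libraries and ICB replicate 1.

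Serpina3n, an acute-phase serpin that inhibits granzyme B and neutrophil proteases in mice, did not follow the other plasma serpins. It measured 11.7, 243 and 118 FPKM in Combination, 105, 83.3 and 157 FPKM in GC, 136, 75.9 and 206 FPKM in ICB and 173, 34.1 and 7.18 FPKM in Control. All groups overlapped, and the difference of Combination from Control was 0.96 ± 1.13 (limma adjusted p = 0.575). Relative to Alb it was at 0.534% to 5.39% in Combination, 17.6% to 47.9% in GC, 26.4% to 327% in ICB and 141.6% to 492% in Control, so that its FPKM exceeded that of Alb in every Control library and in ICB replicate 1.

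The neighbouring genes Serpina3f, Serpina3g, Serpina3h and Serpina3i, which lie with Serpina3n in the cluster at chr12:104146382-104414329, were low. Serpina3g, an inhibitor of cathepsins in lymphoid and myeloid cells that interferons induce, measured 1.24, 7.48 and 5.04 FPKM in Combination, 2.57, 9.07 and 3.83 FPKM in GC, 2.67, 2.79 and 9.28 FPKM in ICB and 2.09, 2.31 and 0.219 FPKM in Control. All GC and all ICB values lay above all Control values, but neither difference was called (1.27 ± 0.62 and 1.17 ± 0.62, limma adjusted p = 0.539 and 1). Serpina3f measured 0.590, 4.67 and 3.20 FPKM in Combination, 0.379, 2.76 and 1.18 FPKM in GC, 0.352, 0.331 and 3.04 FPKM in ICB and 0.366, 0.257 and 0 FPKM in Control. Serpina3h, annotated as a transcribed pseudogene, was lower in every Combination library (3.37, 7.35 and 9.79 FPKM) than in every GC library (11.6, 16.0 and 11.2 FPKM), without a call (-0.91 ± 0.57, limma adjusted p = 0.35).

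A list of 16 type I interferon genes, 15 of them tested, is given beside these genes. In Combination against Control 4 were called higher (Bst2, Ifit3, Irf7 and Rtp4) and 0 lower, against 3.55% and 0.4% of all tested genes, and in GC against Control 0 were called although the median difference of GC was larger, at 1.34 in Combination, 2.10 in GC and 0.36 in ICB. Irf7, an amplifier of interferon signalling, measured 30.9, 23.8 and 11.3 FPKM in Combination, 11.4, 70.6 and 17.2 FPKM in GC, 1.98, 1.35 and 3.27 FPKM in ICB and 1.06, 4.31 and 0.934 FPKM in Control. Serpina3g was highest in ICB replicate 3 and GC replicate 2. Irf7 was also highest in GC replicate 2 and was low in all ICB libraries. A link between the 2 genes was not tested.

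Among the matrix and stromal serpins, Serpine2 differed most between groups. Serpine2 (protease nexin-1, chr1:79794197-79861180) inhibits thrombin and urokinase at cell surfaces. It measured 29.9, 7.39 and 22.3 FPKM in Combination, 48.4, 76.3 and 75.3 FPKM in GC, 18.7, 18.6 and 36.2 FPKM in ICB and 15.5, 11.9 and 6.06 FPKM in Control. All GC values lay above all values of the other 3 groups. The difference was 2.53 ± 0.49 in GC against Control (limma adjusted p = 0.133), -1.86 ± 0.49 in Combination against GC (limma adjusted p = 0.146) and 0.67 ± 0.49 in Combination against Control (limma adjusted p = 0.372).

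Serpine2 was the tested serpin of smallest p in GC against Control, in Combination against GC, in the difference of differences (-2.95 ± 0.69, limma adjusted p = 0.295) and in the moderated F over the 4 groups (adjusted p = 0.0734), and none of these was called. With the hepatocyte covariate its difference in GC against Control was 3.06 ± 0.67 (limma adjusted p = 0.033), and without Combination replicate 1 it was 2.53 ± 0.45 (limma adjusted p = 0.0446), in a fit that called 5 serpins and 1.42% of all tested genes higher. A list of 10 fibroblast genes was also highest in GC, with 0.401% to 0.795% of FPKM there, 0.0609% to 0.285% in Combination, 0.174% to 0.393% in ICB and 0.136% to 0.313% in Control, and no gene of it was called in GC against Control. Its part in the Serpine2 values was not tested.

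Serpinf1 (pigment epithelium-derived factor, a secreted inhibitor of vessel growth that blocks no protease) and Serping1 (C1 inhibitor, which blocks the first complement protease and plasma kallikrein) were graded in a similar order. Serpinf1 measured 118, 435 and 347 FPKM in Combination, 177, 240.2 and 194 FPKM in GC, 106, 100.4 and 145 FPKM in ICB and 82.2, 98.9 and 30.5 FPKM in Control. Each treated group lay above all Control libraries, and the differences were 2.04 ± 0.51 in Combination (limma adjusted p = 0.0518), 1.67 ± 0.51 in GC (limma adjusted p = 0.281) and 0.87 ± 0.51 in ICB (limma adjusted p = 1). Serpinf1 and Serpinf2 are neighbours on chromosome 11, yet Serpinf2 was near 0 in Control where Serpinf1 was abundant.

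Serping1 measured 46.3, 571 and 287 FPKM in Combination, 146, 215 and 206 FPKM in GC, 84.9, 72.4 and 184 FPKM in ICB and 66.6, 46.3 and 17.1 FPKM in Control. Combination replicate 1 lay within the Control range, while all GC and all ICB libraries lay above it. No difference from Control was called (2.36 ± 0.79 in Combination, 2.27 ± 0.79 in GC and 1.44 ± 0.79 in ICB, limma adjusted p = 0.105, 0.345 and 1).

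Serpinh1, the collagen chaperone HSP47, was abundant in nearly every library, at 472, 77.1 and 364 FPKM in Combination, 454, 529 and 227 FPKM in GC, 293, 285 and 416 FPKM in ICB and 148, 448 and 265 FPKM in Control. The groups overlapped in every comparison with Control, the difference of Combination was -0.14 ± 0.64 (limma adjusted p = 0.897) with a 95% interval of -1.53 to 1.26, and its sign turned under TMM scaling (0.19). Combination replicate 2, which had the most hepatocyte RNA, had the lowest Serpinh1, Serpinb6a and Serpinb6b values of all 12 libraries.

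**Figure D5:**
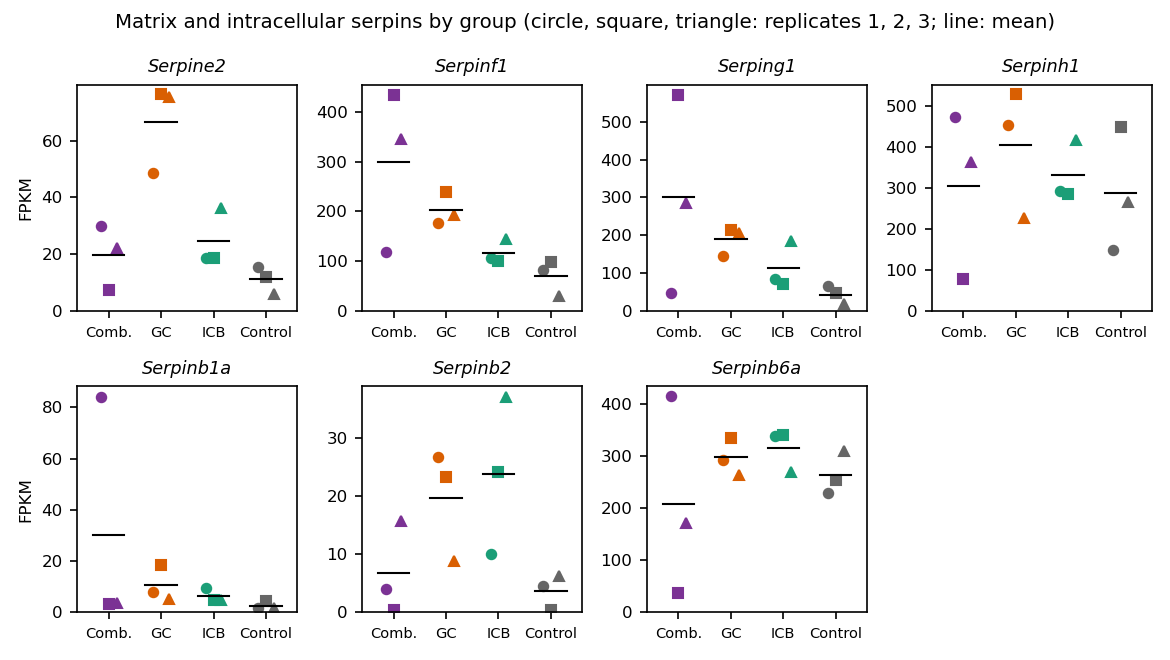
FPKM of 4 matrix and stromal serpins and 3 clade B serpins in the 4 groups, with replicates 1, 2 and 3 as circle, square and triangle and the group mean as a line. Serpine2 is highest in the 3 GC libraries (48.4 to 76.3 FPKM), Serpinb1a stands at 84.2 FPKM in Combination replicate 1 and at most 18.7 FPKM elsewhere, and Serpinb2 is lowest in Combination replicate 2 and Control replicate 2.

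Clade B, the intracellular serpins, had no called member in any comparison. Serpinb6a, a cytosolic inhibitor of cathepsin G and trypsin-like proteases, was by far its most abundant member, at 415, 37.3 and 171 FPKM in Combination, 293, 335 and 263 FPKM in GC, 337, 339 and 268 FPKM in ICB and 229, 253 and 309 FPKM in Control. GC, ICB and Control lay within a narrow range, and only the Combination libraries fell outside it, on both sides. The difference of Combination from Control was -0.91 ± 0.64 (limma adjusted p = 0.352). Without Combination replicate 1 it was -1.69 ± 0.49 (limma adjusted p = 0.0357), in a fit that called 13.8% of all tested genes lower. Serpinb6b, a close relative, measured 5.67, 1.76 and 3.66 FPKM in Combination, 3.67, 7.49 and 6.47 FPKM in GC, 5.86, 4.02 and 8.86 FPKM in ICB and 4.62, 5.13 and 8.78 FPKM in Control.

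Serpinb1a, an inhibitor of neutrophil elastase, cathepsin G and proteinase 3 inside leukocytes and epithelial cells, measured 84.2, 3.27 and 3.68 FPKM in Combination, 7.97, 18.7 and 5.36 FPKM in GC, 9.41, 4.96 and 4.95 FPKM in ICB and 1.76, 4.45 and 1.75 FPKM in Control. Combination replicate 1 was the highest library by a wide margin, and it was also the library with small intestinal RNA, with the intestinal gene Fabp2 at 1779 FPKM and the epithelial gene Epcam at 126 FPKM. The part of that tissue in the Serpinb1a value was not tested. All GC and all ICB libraries lay above all Control libraries, without a call (1.59 ± 0.94 and 1.05 ± 0.94, limma adjusted p = 0.639 and 1). With the hepatocyte covariate Serpinb1a was called higher in Combination (6.24 ± 0.79, limma adjusted p = 0.0119) and in GC (4.49 ± 0.60, limma adjusted p = 0.0123) than in Control, while without Combination replicate 1 its difference of Combination from Control was 0.37 ± 0.50 (limma adjusted p = 0.577).

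Serpinb2, plasminogen activator inhibitor 2, made by activated macrophages and epithelia, measured 4.10, 0.473 and 15.7 FPKM in Combination, 26.7, 23.2 and 8.87 FPKM in GC, 9.95, 24.2 and 37.0 FPKM in ICB and 4.51, 0.425 and 6.17 FPKM in Control. Both single treatments lay above Control in every library and the Combination libraries did not, overlapping Control. Neither single treatment gave a call (2.29 ± 0.86 in GC, limma adjusted p = 0.401, and 2.51 ± 0.86 in ICB, limma adjusted p = 1). The difference of differences was -4.42 ± 1.22 (limma adjusted p = 0.383).

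Serpinb9, the inhibitor of granzyme B that protects lymphocytes and some tumour cells from killing, measured 3.97, 2.36 and 2.76 FPKM in Combination, 2.67, 6.83 and 3.66 FPKM in GC, 2.47, 2.42 and 1.95 FPKM in ICB and 1.00, 3.65 and 3.78 FPKM in Control. All groups overlapped with Control, and the 95% interval of the difference of Combination from Control was -0.67 to 1.00. Gzmb, which encodes granzyme B, measured 5.12, 1.75 and 2.02 FPKM in Combination and 0, 0 and 0.0598 FPKM in Control, and it reached the tested mean only through the Combination libraries. Serpinb8, an intracellular inhibitor that can bind furin, measured 1.09, 1.11 and 2.86 FPKM in Combination, 2.35, 2.06 and 1.28 FPKM in GC, 2.83, 2.15 and 2.58 FPKM in ICB and 0.772, 1.24 and 1.14 FPKM in Control. Its ICB and GC libraries lay above all Control libraries, and the larger difference, in ICB, was not called (0.78 ± 0.31, limma adjusted p = 1).

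In Combination tumours against GC tumours, no serpin was called by limma. At an unadjusted p under 0.05, 2 (6.06%) were higher, against 6.1% of all tested genes (Serpind1, and Serpina6, which was tested only through Combination). At that level 2 (6.06%) were lower (Serpine2 and Serpinb2), against 10.4%. All Combination libraries lay above all GC libraries in 0 of 33 serpins, against 4.16% of all tested genes, and below them in 2 (Serpine2 and Serpina3h), against 14.2%. Serpind1 measured 2.70, 2.22 and 10.4 FPKM in GC, against which the Combination values overlapped through replicate 1 (2.91 ± 1.11, limma adjusted p = 0.275). Limma called 0.642% of all tested genes higher and 0.0235% lower. Without Combination replicate 1, 16 serpins were called, 14 higher and 2 lower, against 8.76% and 14.9% of all tested genes. Serpina6 is among the 16.

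Against ICB tumours no serpin was called by limma either, with 2.05% of all tested genes called higher and 0.188% lower. At an unadjusted p under 0.05, 13 (39.4%) were higher, against 10.8% of all tested genes, and 2 (6.06%) lower (among them Serpinb2), against 9.67%. Without Serpina3f and Serpina6, which were tested only through Combination, 12 of 31 serpins were higher and 2 lower. Serpind1 came nearest to a call, at 0.292, 0.973 and 1.15 FPKM in ICB and with all Combination libraries above them (4.45 ± 1.11, limma adjusted p = 0.0675). Serpina6, tested only through Combination, was the other serpin whose groups did not overlap upward (2 of 33, against 9.47% of all tested genes). Without Serpina3f and Serpina6 the count was 1 of 31. Without Combination replicate 1, 19 serpins were called, 18 higher and 1 lower, against 10.1% and 5.94% of all tested genes. Serpina6 is among the 19.

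The difference of differences asked whether the Combination values were the sum of the GC and ICB differences on the log2 scale. No serpin was called by limma, with 0.0157% of all tested genes called higher and 0% lower. At an unadjusted p under 0.05, 0 serpins were higher, against 2.79% of all tested genes. At that level 4 (12.1%) were lower (Serpine2, Serpinb2, Serpina3h and Serpina7), against 5.3% of all tested genes. Serpina7 had a value of -3.91 ± 1.53 (limma adjusted p = 0.567). The moderated F over the 4 groups called 1.83% of all tested genes and 0 serpins. At an unadjusted p under 0.05 it gave 17 serpins (51.5%), against 17.1% of all tested genes. The tested serpins include Serpina3f and Serpina6, which were tested only through Combination.

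The proteases, receptors and cofactors that serpins act on were taken from a list of 41 genes, of which 40 are in the table and 34 were tested. Of the 34, 7 reached the tested mean only through the Combination libraries (F9, F11, Klkb1, Gzma, Gzmb, St14 and Tmprss2) and are given without a test. Of the other 27, 3 were called higher and 0 lower in Combination against Control, against 3.55% and 0.4% of all tested genes, namely F2 (prothrombin), Plg (plasminogen) and Vtn (vitronectin, an adhesive plasma protein that is also in the hepatocyte list). F2 measured 6.55, 929.6 and 438 FPKM in Combination and 1.26, 0.143 and 0 FPKM in Control (6.73 ± 1.5, limma adjusted p = 0.0301). Plg measured 8.37, 1117 and 466 FPKM in Combination and 0.565, 0.536 and 0 FPKM in Control (6.99 ± 1.44, limma adjusted p = 0.0208). Both were thus high in the same libraries as their plasma inhibitors Serpinc1, Serpind1 and Serpinf2.

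Tmprss2, a membrane protease of epithelia, was distributed differently, at 5.42, 4.66 and 2.05 FPKM in Combination, 0.238, 0 and 0.758 FPKM in GC, 0, 0 and 0.376 FPKM in ICB and 0.172, 0 and 0 FPKM in Control. It was highest in Combination replicate 1. The targets of Serpinb2, Plau (urokinase) and Plat (tissue plasminogen activator), were not called. Plau measured 125, 5.23 and 69.0 FPKM in Combination and 28.7, 78.6 and 65.2 FPKM in Control, which overlap. None of the 34 partners was called in GC or ICB against Control, and their median differences from Control were 0.84 in GC and 0.43 in ICB.

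The 16 members below the test threshold were mostly seen in few libraries. Serpini1 (neuroserpin, an inhibitor of tissue plasminogen activator in the nervous system) was above 0 in 11 libraries and reached 1.18 FPKM in GC replicate 3 and in Control replicate 1. Serpinb9b, a rodent relative of Serpinb9, was above 0 in 9 libraries, at 1.31, 0.220 and 0.358 FPKM in Combination, 0.777, 2.53 and 1.62 FPKM in GC, 0.428, 0.198 and 0 FPKM in ICB and 0, 0 and 0.128 FPKM in Control. Serpinb5 (maspin, an epithelial serpin) was above 0 in 5 libraries and at most 0.424 FPKM, in Combination replicate 1. Serpinb12 was highest in the same library, at 0.491 FPKM.

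Serpina5 (protein C inhibitor) was above 0 only in Combination replicates 2 and 3, at 0.152 and 0.154 FPKM, and Serpina3j likewise. Serpina9 reached 0.969 FPKM in Combination replicate 2. Serpinb3a and Serpini2 were among the 14 symbols listed at 0 throughout. By number of libraries, though not by level, the members nearest to those 14 were Serpinb11, Serpinb1c, Serpinb9e, Serpinb9f, Serpinb9g and Serpine3. Each was above 0 in 1 library, at 0.0451 to 0.251 FPKM. GC replicate 2 was the library of 4 of these 6.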

How the data were processed

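Bulk RNA-seq of 12 tumour libraries (4 groups of 3) was used as FPKM values that the authors deposited in 1 table. The tools HTSeq, HISAT2, SAMtools, cutadapt and FastQC and the build mm10 are named, per the submitters' processing notes; versions, strand use in counting and the treatment of multi-mapped reads are not given in the sources used here. Low values did not fall into steps of whole reads, so the depth and its precision are unknown. No 2 libraries held identical values.

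From these, log2(FPKM + 1) was fitted with limma 3.58.1 (R 4.3.3; group means, contrasts, variance trend, 8 residual degrees of freedom) for the 12765 genes averaging 1 FPKM or more, and p-values were Benjamini-Hochberg adjusted over all of them at a threshold of 0.05. The script was tested on simulated data. Sequences came from GENCODE M21 and RefSeq (Python 3.11.15, Biopython 1.88). Genes were named where called in a comparison, next by smallest p, or by their role in the fixed lists; a few members were singled out after their values were seen. The members and lists were chosen with earlier results of these data known. Alternatives were a pseudocount of 0.1, no filter, TMM scaling, a replicate block, a hepatocyte covariate, fits on subsets of groups and leaving out libraries. Some results are not reported here.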

Additional observations from a re-analysis of the deposited data

How the results depend on the processing

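Titles give the groups the same replicate numbers, but the sample descriptions number some libraries differently. Pairing by the description numbers was not tested. Correlations of deviations from the group means did not settle whether the title numbers pair the libraries, since the libraries also differed in tissue content. The 18 pairs with the same title number had a median correlation of deviations of 0.035 (8 over 0.1), against -0.031 over 36 other pairs (13 over 0.1). With the title number as a replicate block 10 serpins were called in Combination against Control. In Combination against Control 9 serpins were called, 12 with a pseudocount of 0.1 and 6 with TMM scaling, but 2 without the expression filter (49 tested), 1 with the hepatocyte covariate, 0 with only the groups of the comparison in the fit, 0 without the muscle-rich libraries (Control replicate 2 and GC replicate 2), and 0 to 21 when single libraries were left out. That count was 0 when Combination replicate 2, Combination replicate 3 or any single Control library was missing, 3 without ICB replicate 2, 6 without GC replicate 1 and 21 without Combination replicate 1. In GC against Control 0 became 2 with the covariate and 5 without the 3 Combination libraries, and 0 to 5 without single libraries. In Combination against GC the range without single libraries was 0 to 16. In Combination against ICB the count was 2 with a pseudocount of 0.1, 2 with the covariate, and 0 to 19 without single libraries. For the difference of differences it was 4 with the covariate (1 of them Serpina6, tested only through Combination) and 0 to 3 without single libraries, and for the moderated F it was 3 with a pseudocount of 0.1, 3 with the covariate and 0 to 19 without single libraries. In ICB against Control it was 0 under each alternative run. Serpina6, tested only through Combination, was also among the serpins called with the replicate block and with a pseudocount of 0.1. Without Combination replicate 1 it was called against Control, GC and ICB, in the difference of differences and in the moderated F. Serpina3f was among the 21 called without that library. The mean filter kept both genes only through Combination, so these calls are no test of them. With the covariate the Combination against Control differences reversed, at -0.83 for Serpina1a, -0.59 for Serpina1b, -0.66 for Serpina1c, -1.12 for Serpina1d, -1.28 for Serpina1e, -1.55 for Serpina3k, -0.91 for Serpinc1, -0.57 for Serpind1 and -1.04 for Serpinf2, as did GC against Control for Serpina1c, at -0.20, and the cause was not tested. TMM scaling moved the median of all tested genes in Combination against Control to -0.02, a shift of 0.27. Depth is unknown, so no limit can be set on genes listed at 0.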
